A study of Saccharomyces cerevisiae with 4 samples.

Results

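Short Spo11 oligos are the mapped reads of 12 to 24 nt in a list of Spo11 oligos from meiotic budding yeast, and they numbered 235965 of 2024944 reads (11.7%, 95% Wilson interval 11.6 to 11.7%). They were chosen by length alone, counting the listed start and the listed end as the first and last base. They are set here against the 1212681 reads of 25 to 32 nt, the main length class, and in places against the 434516 reads of 33 to 40 nt. The cells were SK1 diploids (MATα/MATa) that carried SPO11-HA3-His6::kanMX and nuc1∆::LEU2 in both copies, so every sample had the tagged Spo11 and lacked NUC1. The other alleles, all homozygous, were arg4-Nsp, his4X::LEU2, leu2::hisG, lys2, ura3 and ho::LYS2. Cultures started at an OD600 of 0.2, grew for 14 h in presporulation medium and were then shaken for 4 h in sporulation medium, all at 30 °C. Culture 2 gave dataset 2, and culture 1 gave datasets 1A, 1B and 1C, where 1B repeated the PCR on the ligated oligos of 1A and 1C repeated the ligation on the same purified oligos. There was no untreated or mutant control, so all comparisons are between lengths, places and runs within 1 strain and 1 time.

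Spo11 starts meiotic recombination by cutting both DNA strands, and it stays joined to the 5′ ends it makes. Nicking of the bound strand by the Mre11 complex with Sae2 releases Spo11 with a short oligo, so the 5′ end of an oligo marks the cut and its 3′ end marks where the nucleases acted. On gels, Spo11 oligos of yeast are known to run as a shorter and a longer class. In this study the protein was removed, oligo 3′ ends were tailed with riboguanosine and ligated to linkers, and PCR products of a chosen size were taken from a gel. The list therefore describes products that passed the gel and mapped uniquely, not all oligos in the cell.

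Both deposited files pool the 4 datasets. The first 7 characters of the read names mark 4 sequencing runs, E8YXO9P, FE8RWPF, FFA0GWK and FIDXMPL, with 395612 to 587674 reads each, and the labels do not say which dataset or culture a run holds. Runs are given as single values, never as replicates, and all intervals cover counting error only, because PCR copies of 1 molecule cannot be told from separate molecules. No spread between cultures could be had. The mapping score gave a second view of each read. For 53.3% of all reads it lay within 0.01 of a value fixed by the listed length and a genome of 12 Mb, here called the full score, when the listed start was counted as a base, and for 0.0235% when it was not. The file holds no other statement on this. If the listed start is not a base, every length given here is 1 base too long. Top-strand 5′ positions would then be 1 too low, and the strand offsets given below 1 too high.

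The short oligos formed a tail that thinned with each base removed. The commonest length was 24 nt with 51256 reads, and the 235965 lengths averaged 21.2 nt with an SD of 2.38 nt and a median of 22 nt. There were 32982 reads of 22 nt, 15419 of 18 nt, 2757 of 15 nt and 38 of 12 nt, and no second peak stood within the range. The bound itself fell on a slope: the list held 51256 reads of 24 nt just inside it and 73197 of 25 nt just outside. Short oligos lay on both strands alike, with 49.7% on the top strand and 49.8% of 25 to 32 nt.

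Run FFA0GWK held far more of the shortest reads than the other runs. Short oligos made up 16.6% of its reads (94025 reads, 16.5 to 16.7%), against 10.3% in E8YXO9P (40645), 10.4% in FE8RWPF (61257) and 8.42% in FIDXMPL (40038). The excess grew as length fell: 24 nt reads made up 2.94% of FFA0GWK and 2.36 to 2.41% of the other runs, and 18 nt reads made up 1.34% and 0.381 to 0.631%. At 15 nt FFA0GWK had 0.414%, which was 14.8 times the mean of the other runs (0.0255 to 0.0295%). The characters that follow the run in the read names were read here as regions of a run, which no label states. Both such regions of FFA0GWK had it, at 16.4 and 16.8% short, and the 8 regions of the other runs lay between 8.37 and 11.1%. Since run, dataset and culture cannot be told apart here, values by run stand beside the main comparisons below, while shares given without them are of all runs together.

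The score divided the short oligos. Of them, 53.8% had the full score, 28.0% had a score below it and 18.2% had one above it, against 55.2%, 33.8% and 10.9% of the reads of 25 to 32 nt. How the score was made is not stated, so what a value above or below the full score stands for is not known. For 17084 short reads (7.24%) the score was the full score of 25 bases or more. These reads are short by the listed coordinates, and the length of the oligos behind them was not tested. Results are therefore also given for full-score reads, a setting chosen after the scores had been seen.

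Most short oligos lay in break hotspots, though fewer than of the main class. Hotspots were called here from all reads, as stretches where the smoothed density of 5′ ends passed 2.3 times the genome mean, which gave 3626. They held 81.3% of short oligos (81.2 to 81.5%) and 90.1% of reads of 25 to 32 nt (90.04 to 90.15%), a difference of −8.77 percentage points (95% interval −8.93 to −8.60). The share was lower for short oligos in each run: 82.7 against 90.2% in E8YXO9P, 83.1 against 90.4% in FE8RWPF, 79.3 against 90.1% in FFA0GWK and 81.8 against 89.6% in FIDXMPL. Reads of 33 to 40 nt were close to the main class at 88.8%. By length, over all runs together, the share in hotspots was 13.2% at 12 nt (38 reads), 54.1% at 14 nt and 73.0% at 17 nt. It was 81.2% at 20 nt and 85.9% at 24 nt, with 87.9% at 25 nt and 90.6% at 29 nt. Run FFA0GWK gave 20927 of the 34547 reads of 12 to 18 nt, so the shortest lengths lean on that run. Reads of 12 to 18 nt had 70.3% and those of 19 to 24 nt 81.9% in FFA0GWK. In the other runs these shares were 70.8 to 77.7% and 82.8 to 84.0%.

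The gap was smaller among full-score reads. Of short oligos with the full score, 90.3% lay in hotspots, against 91.6% of full-score reads of 25 to 32 nt, a difference of −1.29 points. The gap stayed larger in the shortest full-score reads, with 85.9% at 12 to 18 nt and 91.3% at 19 to 24 nt. At 14 nt the full-score share was 68.6% and at 16 nt 83.0%. Short oligos scored below the full score had 64.6% in hotspots, against 87.4% of such reads of 25 to 32 nt, and among those of 12 to 18 nt it was 35.3%. Put the other way, short oligos made up 14.9% of 12 to 32 nt reads inside hotspots and 26.8% outside. For full-score reads these were 15.7 and 17.95%, and by run they were 13.9 inside and 14.1% outside in E8YXO9P, 14.5 and 15.5% in FE8RWPF, 20.9 and 24.5% in FFA0GWK, and 11.3 and 14.8% in FIDXMPL. In E8YXO9P the intervals overlapped, 13.7 to 14.1% inside and 13.5 to 14.7% outside.

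Within hotspots short oligos lay slightly farther from the summit than the main class. Their 5′ ends lay a median of 42 bp from the summit, and 55.3% were within 50 bp, against 38 bp and 57.5% for reads of 25 to 32 nt. Reads of 33 to 40 nt lay between, at 40 bp and 56.8%. The summit was set from reads of all lengths, of which 25 to 32 nt made up 59.9%. The main class was thus measured from a point that it largely set, so the difference is a description. The medians by run were 42, 43, 44 and 39 bp for short oligos in the order of runs above, and 39, 39, 40 and 36 bp for 25 to 32 nt.

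Each 5′ end was checked for a read of 25 to 32 nt of another run that began at the same base and strand, so that no read is set against its own run. These cut positions are those of the main class, so its reads were matched to their own class and other lengths were not. The choice favours the main class, so the gaps below are a description. Of short oligos 51.5% began at such a cut position (51.3 to 51.7%), against 76.7% of reads of 25 to 32 nt, a difference of −25.2 points (−25.42 to −24.99). Reads of 33 to 40 nt had 68.1%, so the long side fell off less. The share rose with length from 22.0% at 14 nt through 39.5% at 18 nt and 53.4% at 22 nt to 61.9% at 24 nt, with 68.1% at 25 nt and 79.1% at 29 nt. By run it was 54.8% of short oligos in E8YXO9P, 53.5% in FE8RWPF, 47.5% in FFA0GWK and 54.7% in FIDXMPL, all below the 74.3 to 78.6% of the main class. Against the same cut positions, full-score reads had 56.6% for short oligos and 79.0% for 25 to 32 nt, so this gap stayed of similar size.

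The 3′ ends were shared less than the 5′ ends. The reference was again the main class itself, with the limit given for 5′ ends. Of short oligos 40.8% ended where a read of 25 to 32 nt of another run ended, against 68.7% of the main class and 44.3% of 33 to 40 nt. Both ends were shared by 26.1% of short oligos and 63.0% of the main class. Short oligos with only a 5′ end in common made up 25.4% and those with only a 3′ end 14.7%, against 13.8 and 5.75% of 25 to 32 nt. Neither end was shared by 33.8% of short oligos, against 17.5%. The balance shifted in the shortest: of reads of 12 to 18 nt, 18.5% shared only the 5′ end, 18.6% only the 3′ end and 46.5% neither.

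Most short oligos nevertheless lay within the bounds of a longer one. For 75.9% the whole interval fell inside a read of 25 to 32 nt of another run on the same strand, for 57.4% inside one on the opposite strand, and for 18.8% inside none on either strand. Of full-score short oligos 83.9% fell inside a longer read on the same strand and 10.7% inside none. Profiles of end positions gave the same picture base by base. Against 5′ ends of 25 to 32 nt reads on the same strand, short 5′ ends peaked at the same base, 10.3 times the median over offsets of −40 to 40. A side peak of 1.99 times the median stood where the longer read began 7 bases upstream, and for 12 to 18 nt it stood at 12 bases upstream (2.07 times). At 3′ ends the peak at the same base was 3.55 times the median, with a side peak of 2.66 times where the longer read ended 5 bases downstream. The length difference between the classes fixes that each shared end brings a side peak at the other, so the side peaks are no separate finding.

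With all reads counted, the share of short oligos was highest at positions where no longer oligo of another run began. Positions were ranked by how many reads of 25 to 32 nt began there in the other 3 runs, in bins set after the data were seen, and the share was taken among 12 to 32 nt reads. It was 28.9% at positions with 0 such reads, 17.9% with 1, 14.3% with 2 to 4, 12.1% with 5 to 9, 10.4% with 10 to 19, 8.71% with 20 to 49, 6.97% with 50 to 99 and 5.997% with 100 or more (5.83 to 6.17%). The order was the same in all 4 runs, and full-score reads had 28.2% with 0 reads and 5.69% with 100 or more. Reads of 25 to 32 nt both ranked the positions and entered the share, so a position rich in short and poor in main-class reads falls into the low bins by construction. Ranked instead by reads of 33 to 76 nt of the other runs, which enter neither class, the share was 22.4% with 0 reads, 14.2% with 1, 10.2% with 10 to 19, 11.3% with 50 to 99 and 7.04% with 100 or more, and the steps were no longer all downward. In that ranking FFA0GWK had 29.2% with 0 reads and 10.7% with 100 or more, and the other runs had 16.5 to 20.7% and 4.71 to 6.14%.

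The fall beyond the first reads depended on how repeated reads were counted. With each interval and strand counted once per run, the ranking by 25 to 32 nt gave 29.2% with 0 reads, 13.9% with 10 to 19 and 20.3% with 100 or more. The ranking by 33 to 76 nt gave 23.9% with 0 reads, 16.2% with 2 to 4 and 24.6% with 100 or more (22.4 to 26.9%), so there the top bin was no lower than the bin with 0 reads. Counting all reads, 48.5% of short oligos lay at positions with no main-class read in another run, against 23.3% of the main class, with the limit given for cut positions.

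The positions of short oligos were mostly used once. They began at 141897 distinct positions and strands, of which 72.9% held 1 short oligo and 57.6% held no read of 25 to 32 nt in any run. Those without such a read held 43.7% of all short oligos, while the 1000 most used positions held 8.38%. Only 14 position and strand pairs had at least 500 reads of 12 to 32 nt, and there the share of short oligos ran between 0.554 and 16%, with a median of 5.02%.

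The 5 positions with the most short oligos were largely positions of reads scored above or below the full score. The first lay on chromosome VIII at 122161 on the top strand, in the hotspot between ERG11, the lanosterol demethylase of ergosterol synthesis, and YHR007C-A. It held 204 short oligos and 16 reads of 25 to 32 nt, with 44, 58, 44 and 58 short ones in the runs in the order above. Of the 204, 178 were listed at 23 nt and 170 had a score above the full score. The second, at 338106 on the bottom strand of chromosome IX between EST3, a telomerase subunit, and FAA3, an acyl-CoA synthetase, held 150 short oligos and 0 of 25 to 32 nt. Of these, 149 were listed at 23 nt and 148 had a score above the full score. The third, at 190350 on the bottom strand of chromosome VIII between SRB2, a Mediator subunit, and NCP1, the cytochrome P450 reductase, held 124 short oligos and 316 of 25 to 32 nt, and 100 of the 124 were scored below the full score. At 211707 on the top strand of chromosome III between BUD23, a ribosomal RNA methyltransferase, and ARE1, a sterol acyltransferase, 122 short oligos stood beside 29 of 25 to 32 nt, and 90 were scored above it. At 501748 on the top strand of chromosome II between AGP2, a plasma membrane regulator of transport, and HSL7, a morphogenesis checkpoint methyltransferase, there were 119 short oligos and 67 of 25 to 32 nt, and 107 were scored above it. Here and below, hotspots and their positions are named by the genes on either side of the gap nearest the hotspot summit. The summit itself may lie inside a gene. Coordinates are those of the deposited list, and which build of S288C it uses is not given in the sources used here.

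Among full-score short oligos alone, a list made after the scores had been seen, other positions led. The counts of 25 to 32 nt set beside them are reads of any score. The base at 848758 on the bottom strand of chromosome VII between ERG1, the squalene epoxidase, and ATF2, an alcohol acetyltransferase, held 71 short oligos beside 1531 of 25 to 32 nt. The base at 658309 on the bottom strand of chromosome XII between YLR256W-A and YLR257W held 71 beside 420, and 54 of those 71 came from run FIDXMPL. In the hotspot between SPR3, a septin made in sporulation, and ERG25, the C-4 methyl sterol oxidase, the base at 610077 on the bottom strand of chromosome VII held 54 full-score short oligos and 15 reads of 25 to 32 nt, 33 of the 54 listed at 22 nt. These came from all runs, with 14, 16, 18 and 6.

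Spo11 cuts the 2 strands of DNA a fixed distance apart, which leaves a spacing between 5′ ends of oligos on opposite strands. Short oligos had the same spacing as the main class, with a lower peak. Products of top-strand and bottom-strand 5′ counts of short oligos were highest for bottom-strand ends 2 positions right of top-strand ends, at 4.06 times the median over offsets of −50 to 50, with 2.20 times at 1 and 1.75 times at 3. For 25 to 32 nt the best offset was also 2, at 7.98 times the median, and for 33 to 40 nt it was 2 at 5.49 times. Short oligos set against 25 to 32 nt reads on the opposite strand peaked at 2 with 5.56 times, and against those of other runs alone with 5.56 times as well. Reads of 12 to 18 nt peaked at 2 with 3.44 times and those of 19 to 24 nt with 5.90 times.

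The spacing held in all 4 runs and on most chromosomes. The peak of short oligos with each other was 4.24, 4.48, 3.88 and 3.55 times the median in E8YXO9P, FE8RWPF, FFA0GWK and FIDXMPL, against 8.80, 8.58, 8.27 and 6.04 times for 25 to 32 nt. The best offset was 2 on 13 of 16 chromosomes for short oligos, with 1 on V, −42 on VI and −6 on XI, and on 15 of 16 for 25 to 32 nt, with −9 on VIII. The highest product of short oligos averaged 4.17 ± 1.91 times the median over chromosomes, against 7.52 ± 4.53 times for 25 to 32 nt (SD, n = 16 each), and it was the lower on 15 of 16. Full-score reads had 3.99 times for short oligos and 10.5 times for 25 to 32 nt, both at 2. Some short oligos also had a partner of exactly the same interval on the other strand. Summed products of such pairs were 4.12 times the mean of those with intervals shifted by 6 to 15 positions, against 4.80 times for 25 to 32 nt, and the numbers of interval pairs were 2.46 and 2.39 times that mean.

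The share of short oligos differed between hotspots in both directions. Each hotspot was set against all others in a two-sided exact test of short against main-class counts, stratified by run, with Benjamini-Hochberg adjustment, and called at an adjusted p under 0.05 with the same direction in 4 of 4 runs. Of 3625 hotspots tested, 134 (3.70%) had a higher and 130 (3.59%) a lower share. A further 77 passed the threshold without all runs on 1 side. The test takes reads as independent, so PCR copies can enter it. With each interval and strand counted once per run, 81 were higher and 34 lower, of which 44 and 28 were among those above, and 4 of the 81 had been called lower. With full-score reads alone, 89 were higher and 74 lower, of which 52 and 48 were among those above. Among the 701 hotspots with at least 500 reads of 12 to 32 nt the share ran between 5.76 and 27.4%, with a median of 14.9% and 11.5 and 18.5% as the 10th and 90th percentiles.

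The highest shares among called hotspots with at least 500 reads came from 5 hotspots, named by their nearest gap between genes. The hotspot between CMI8 and MRPL28, a mitochondrial ribosomal protein, on chromosome IV (1385761 to 1386035) had 256 short oligos and 679 of 25 to 32 nt, a share of 27.4%, with 30.1, 26.8, 31.5 and 22.6% by run (adjusted p = 1.94e-20, exact stratified test). Here 1 base, 1385863 on the bottom strand, gave 107 of the 256 short oligos, or 41.8%, and the share among full-score reads was 19.3%. In the next 4 the base with the most gave between 5.04 and 12.7% of the short oligos. Between CHS6, which helps move chitin synthase to the cell surface, and SAP185, a partner of the Sit4 phosphatase, on X (241593 to 241902) the share was 25.3%, with 27.6, 22.7, 25.3 and 27.2% by run (adjusted p = 3.43e-10, exact stratified test). It was 23.8% between YDL159W-A and STE7, a kinase of the mating pathway, 23.7% between PSA1, which makes GDP-mannose, and MCH1, and 23.5% between PAH1, the phosphatidate phosphatase, and MME1. Counted once per interval and run, these 5 had 27.3, 28.9, 26.1, 26.2 and 23.7%. On that scale the 701 hotspots had a median of 20.1% and a 90th percentile of 24.4%, and the largest hotspots reached similar values, as given below. Among full-score reads the last 4 had 23.4, 23.9, 25.3 and 24.5%, where the median of the 701 was 15.9% and the 90th percentile 21.1%.

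In the 5 hotspots with the lowest shares, 1 base held between 15.99 and 45.5% of the reads of 25 to 32 nt, against 7.31 to 16.1% in the 5 with the highest. The ranges overlap slightly, and reads of 25 to 32 nt enter the share by which these hotspots were chosen. The contrast is therefore a description, and it was not tested over the 701 hotspots. The hotspot between IPP1, the inorganic pyrophosphatase, and YBR012W-A on chromosome II (258042 to 258286) had 46 short oligos and 752 of 25 to 32 nt, a share of 5.76%, with 5.67, 2.49, 10.2 and 5.86% by run (adjusted p = 5.11e-12, exact stratified test). Between CDD1, the cytidine deaminase, and ERF2, which takes part in Ras palmitoylation, on XII the share was 6.76%, and 1 base held 32.9% of the 25 to 32 nt reads. An unnamed hotspot on XI (499490 to 499824) had 7.47%, the one between YFR054C and IRC7, a sulphur amino acid lyase, on VI had 8.05%, and the one between ATG23, an autophagy protein, and IMD3, an IMP dehydrogenase, on XII had 8.54%. Counted once per interval and run, the 5 had 14.0, 14.8, 10.7, 13.9 and 17.996%, where the 701 hotspots had a median of 20.1% and a 10th percentile of 16.7%. Among full-score reads they had 10.2, 8.45, 10.6, 7.10 and 7.40%, where the 10th percentile was 11.8%.

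The hotspots with the most short oligos were chosen by a count that enters the share, so their shares are a description. FRS2, whose product charges phenylalanine tRNA, and GAT1, a regulator of nitrogen genes, bounded a hotspot that had 1146 short oligos and 5879 of 25 to 32 nt, 16.3%, on 354 positions and strands. SND1, of the endoplasmic reticulum targeting machinery, and CCT6, a chaperonin subunit, bounded 1050 short oligos at 17.8%. SRB2 and NCP1 bounded 967 at 19.5%, SPR3 and ERG25 bounded 894 at 19.1%, and EST3 and FAA3 bounded 827 at 16.4%. The first 4 were called higher, and the hotspot between EST3 and FAA3 was not (adjusted p = 0.0795, exact stratified test). Among full-score reads the 5 had 16.03, 18.2, 16.5, 19.2 and 14.2%, against a median of 15.9%, and counted once per interval and run they had 25.8, 28.4, 28.5, 25.1 and 20.8%. In each of the 5 hotspots the run FFA0GWK had the highest share.

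Hotspot strength made little difference to the share of short oligos over most of its range. Hotspots were put in 10 bins of equal number by their count of 25 to 32 nt reads, between 0 and 36 in the weakest bin and between 723 and 5879 in the strongest. The short share was 18.3% in the weakest bin, between 14.5 and 15.2% in the next 8, and 15.1% in the strongest, a difference of −3.27 points between strongest and weakest (−4.00 to −2.57). Ordering by the same reads that enter the share puts hotspots with few main-class reads by chance into the weakest bin. Hotspots were also called from all reads, so weak ones could pass the rule through their short oligos. An order from other runs does not change that calling. With the order taken from the other 3 runs the strongest bin had 15.1% and the weakest 16.5%, a difference of −1.44 points. In that order the strongest and weakest bins had 13.7 and 15.4% in E8YXO9P, 14.3 and 16.8% in FE8RWPF, 19.5 and 21.0% in FFA0GWK, and 11.3 and 11.97% in FIDXMPL, with overlapping intervals in FIDXMPL. For full-score reads the difference was −5.50 points in the pooled order and −1.75 in the order from other runs. In the pooled order the difference was −1.65 points with hotspots at 4 times the mean and −0.722 with 3 bins. With hotspots called from reads of 25 to 76 nt it was −0.464, with an interval that included 0 (−1.16 to 0.212). Counting each interval and strand once per run turned the difference of −3.27 points to 3.06 points, so its direction rested on how repeated reads were counted. Whether that count lowers main-class reads more than short ones in strong hotspots was not tested, so the change of sign does not settle the direction.

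The kind of gap between genes made little difference too. Each hotspot was classed by the gap nearest its summit, and summits inside genes were not set apart. Short oligos made up 15.004% of 12 to 32 nt reads (14.91 to 15.09%) in 1389 hotspots nearest a gap between divergent genes. They made up 14.9% (14.83 to 15.02%) in 1880 nearest a tandem gap and 15.3% (14.9 to 15.8%) in 140 nearest a convergent gap. The 217 hotspots on chromosome XI were left out of gene naming, because the list and the gene table were out of register there.

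Near chromosome ends the share of short oligos was higher, but not among reads inside hotspots. Within 20 kb of an end it was 19.3% of 11553 reads of 12 to 32 nt (18.56 to 19.997%), against 16.3% in the rest of the genome, a difference of 3.003 points (2.29 to 3.73). By run it was 16.5% near ends and 14.6% elsewhere in E8YXO9P, 17.1 and 15.2% in FE8RWPF, 25.3 and 21.4% in FFA0GWK, and 14.9 and 12.1% in FIDXMPL, and it was higher near the ends of 15 of 16 chromosomes. The exception was VI, with 15.2% of 3027 reads near its ends and 15.5% elsewhere. Near ends 34.6% of these reads lay outside hotspots, against 11.1% elsewhere. Inside hotspots the short share was 14.8% near ends and 14.9% elsewhere, and outside hotspots 27.6 and 26.8%. Counted once per interval and run the difference was 0.935 points, for full-score reads 1.67 points, and with a zone of 10 kb 1.84 points. By distance the share was 18.1% in the first 10 kb, 19.97% from 10 to 20 kb, 16.7% from 20 to 30 kb, 16.2% from 30 to 40 kb, and 15.9 to 16.3% beyond.

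Whole chromosomes differed little. The share averaged 16.3 ± 0.561% (SD, n = 16), with 15.1% on I at the low end and 17.4% on III at the high end, both small chromosomes. Pearson's r with chromosome length was 0.206 and Spearman's rho 0.288 over the 16 chromosomes, which share libraries and depth. Chromosome III had more than I in each run: 15.8 and 13.1% in E8YXO9P, 15.98 and 14.001% in FE8RWPF, 22.7 and 20.4% in FFA0GWK, and 12.9 and 11.0% in FIDXMPL.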

How the data were processed

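Each read of the deposited list has a start, an end, a strand and a score from the authors' mapping, and a second deposited file gives hit counts by position, strands summed, in a form the authors call curated, per the file headers. The headers name S288C, and the sources used here give neither the aligner, nor the genome build, nor the rules of the curation. The counts entered no comparison. Of 62724 positions that held only short oligos, 98.1% were in the curated counts, against 99.2% of 328160 positions without any.

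The members, hotspot rule, gap classes and tests were chosen with earlier results of these data known. The 5′ end was the start on the top strand and the end on the bottom strand. Hotspots were stretches of 5′ ends of all lengths, smoothed with a Hann window of 201 bp, at or above 2.3 times the mean over 12 Mb, merged at gaps of 200 bp or less, at least 25 bp long and with at least 10 reads per 1000000. Intervals are 95% Wilson intervals, and Newcombe intervals for differences. Named were the 5 highest and 5 lowest shares among called hotspots with at least 500 reads of 12 to 32 nt, the 5 hotspots and the 5 positions with the most short oligos. Gene names came from a RefSeq table of S288C. Its coordinates set the gaps between protein-coding genes, and each hotspot summit outside chromosome XI was given its nearest gap. In 188 of 189 windows of 50 kb on 15 chromosomes list and table were within 100 bp of each other. The exact test and the offset measure were tested on simulated data. Alternatives were reads counted once per interval, strand and run, each run left out, other length bounds and hotspot rules, Fisher's exact test, other bins, and, added after seeing the data, full-score reads, an order from other runs, positions ranked by reads of 33 to 76 nt, and reads inside hotspots. Python 3.11.15, numpy 2.4.6, scipy 1.17.1 and pandas 2.3.3 were used.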

Additional observations from a re-analysis of the deposited data

Results flagged for a closer look

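In 8 of 28 measures taken per run, 1 of the 4 runs stood apart from the others by Dixon's criterion, which chance meets in about 1 of 20 groups. In all 8 it was run FFA0GWK, and the measures are shares of neighbouring lengths in the same reads, so they are not independent. Reads of 12 to 18 nt made up 3.70% of FFA0GWK and 0.694 to 1.09% of the other runs. By single length, FFA0GWK and the other runs had 0.00530% and 0.000421 to 0.000758% at 12 nt, 0.0200% and 0.00126 to 0.00289% at 13 nt, and 0.130% and 0.00531 to 0.00715% at 14 nt. They had 0.414% and 0.0255 to 0.0295% at 15 nt, 0.737% and 0.0823 to 0.109% at 16 nt, and 1.05% and 0.192 to 0.316% at 17 nt. At 24 nt they had 2.94% and 2.36 to 2.41%. Of the 34547 reads of 12 to 18 nt, 20927 came from FFA0GWK, and 70.3% of those lay in hotspots, against 70.8 to 77.7% of those of the other runs. No label ties this run to a dataset, so culture, ligation, PCR and sequencing cannot be told apart.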

How the results depend on the processing

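Over 20 alternatives, 39 of 77 values stayed within the interval of the value reported (for counts, within 1.5 times it), 35 moved beyond it and 3 changed sign. The best strand offset was 2 in every alternative run, none of which changed how the listed start was counted. The peak of short oligos fell from 4.06 to 2.68 times the median when each interval and strand was counted once per run. The alternatives did not include that peak for 25 to 32 nt. Counting each interval and strand once per run gave −6.25 points for hotspots, −19.2 points for cut positions of other runs, 81 hotspots called higher and 34 lower, 3.06 points for strength (a change of sign) and 0.935 points for chromosome ends. Full-score reads gave −1.29, −25.7, 89, 74, −5.50 and 1.67 for the same 6 values. Bounds 1 base higher in the listed lengths gave −7.31, −22.1 and −4.10 points for hotspots, cut positions and strength. These bounds give the intended classes if the listed start is not a base. Hotspots called from reads of 25 to 76 nt numbered 3643 and gave −9.21 points for hotspots and −0.464 for strength, and hotspots at 4 times the mean numbered 2975 and gave −8.47 and −1.65. For strength, 3 bins in place of 10 gave −0.722 and the order from other runs −1.44, or −1.75 for full-score reads. The short share at positions used 100 or more times minus that at unused ones was −22.9 points, −8.86 counted once per interval and run, −15.3 ranked by reads of 33 to 76 nt, and 0.726 with both (a change of sign). For ends, a zone of 10 kb gave 1.84, and reads inside hotspots alone −0.0937 (a change of sign). Cut positions with at least 2 reads gave −26.3. Leaving out each run in turn gave −9.28 to −7.46 for hotspots, −25.9 to −24.1 for cut positions, 114 to 137 hotspots called higher and 89 to 116 lower, −3.90 to −3.14 for strength and 2.26 to 3.49 for ends. At positions used 100 or more times, counting once per interval and run took reads of 12 to 32 nt from 73136 to 9809. Short oligos there went from 4386 to 1995. The causes of these shifts were not tested. No paired analysis was possible because both files pool the 4 datasets and carry no replicate numbers. Depth and repeated reads both limit the hotspot test: the median hotspot held 241 reads of all lengths, and the called ones a median of 600 for higher and 614 for lower shares. With a single strain and time and no spread between cultures, intervals say nothing of biological variation.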
